A study of Mus musculus with 10 samples.

Results

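The 34 genes described here build cholesterol and fatty acids or control that synthesis. They were taken by name from the 51456 genes of a bulk RNA-seq table, 23 on the sterol side (17 pathway enzymes and 6 genes of sterol control) and 11 for fatty acids, and all 34 were found in the table. The study sorted cells from mouse bone marrow into 2 groups of 5 libraries. The HSC-labelled group holds haematopoietic stem cells of wild-type C57BL/6J mice, gated as lineage-negative cells positive for Sca-1, c-Kit and CD150 and negative for CD48. The LSC-labelled group holds leukaemia stem cells of mice whose acute myeloid leukaemia was driven by MLL-AF9, gated as lineage-negative cells without Sca-1 and with c-Kit, CD16/32 and CD34. The genotype label reads wild-type in both groups. The sources used here do not give how MLL-AF9 was introduced, how old the mice were or whether each library came from its own mouse. The p-values therefore reflect spread among the libraries, which may be technical. Disease and gate differ together and cannot be told apart.

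Cells make cholesterol from acetyl-CoA through mevalonate, squalene and lanosterol, and the same early steps supply isoprenoids for ubiquinone, dolichol and prenylated proteins. Cytosolic acetyl-CoA also feeds fatty acid synthesis, in which palmitate is made and then lengthened by elongases and given double bonds by desaturases. Both branches are driven by the SREBP factors, which Scap escorts to the Golgi for cleavage when sterols are low and Insig proteins hold back in the endoplasmic reticulum. Srebf1 is known mainly for fatty acid genes and Srebf2 mainly for sterol genes.

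Levels are in FPKM, fragments scaled to gene length and library size, so they can be compared between genes. Each library's FPKM total lay in the range 472651 to 499850, and the steps between low values gave an estimated depth of 13260000 to 35300000 fragments. Marker RNA went largely against the labels. Ly6a, which encodes Sca-1, had HSC-labelled values of 0.2699 to 2.52 FPKM and LSC-labelled values of 43.5 to 105, and Hoxa10, a target of MLL fusions, had 24.9 to 40.2 and 0.803 to 1.10 FPKM. Slamf1, which encodes CD150 of the HSC gate, was higher in the LSC-labelled libraries (0.494 and 2.85 FPKM). Hoxa9 (57.0 and 7.06) and Meis1 (18.6 and 10.7) were lower there. Fcgr3 and Fcgr2b, of the CD16/32 in the LSC gate, were lower too (371 and 197, 42.2 and 26.6 FPKM). Cd34, of the same gate, was higher (27.7 and 91.3, limma adjusted p = 0.00166), as its label has it. Kit, which encodes c-Kit of both gates, was higher too (21.5 and 61.6 FPKM, limma adjusted p = 0.00127). Cd48 was not called and was abundant in both groups (130 and 153 FPKM), although the HSC gate is negative for CD48. Directions are therefore given between libraries as labelled. Limma called 3654 of 13431 genes tested higher in the LSC-labelled libraries (27.2%) and 1859 lower (13.8%), 41% in either direction. The median log2 fold change of all genes was 0.11 on the deposited values. Median-of-ratios scaling moved it to -0.01 and quantile normalization to -0.02, a shift of the same size as the smaller changes below. HSC-labelled library 2 stood apart in its group by the highest erythroid factors, with Gata1 at 28.9 FPKM against 1.55 to 2.93 in the other 4, and HSC-labelled library 3 by the lowest Kit (7.22 FPKM) and Cd34 (7.51).

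Most fatty acid genes tested, with the largest fold changes among desaturases and elongases, were higher in the LSC-labelled libraries, while most sterol enzymes did not pass the test. Of the 31 members tested, 14 were called higher, 2 lower and 15 not called, beside 27.2% higher and 13.8% lower over all genes. Median-of-ratios scaling gave 9 higher and 4 lower, beside 2777 higher and 2690 lower of all 13431 genes tested. Quantile normalization gave 10 and 4, beside 2786 and 2833. Without LSC-labelled library 5 the higher ones were 9 and the lower 1, beside 3097 and 1562. Of the members, 30 reached 1 FPKM in all 10 libraries and Fads2 in 9, while Acacb, Scd1 and Fads3 lay below the filter of 1 FPKM in at least 5 libraries. The fatty acid genes had a median log2 fold change of 0.89 (7 of 8 tested higher, 0 lower), the genes of sterol control 0.34 (4 of 6 higher, 0 lower) and the sterol enzymes 0.03 (3 of 17 higher, 2 lower), beside 0.11 over all genes. With median-of-ratios scaling the medians were 0.75, 0.21 and -0.09. Among the members tested, the groups of libraries did not overlap for 9 that were higher and 2 that were lower, beside 20% and 9.8% of all genes tested (29.8% in either direction). A call with a log2 fold change of at least 1 was made for 5 members, Fads2, Elovl6, Fads1, Scd2 and Sqle, beside 6.72% of all genes tested.

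**Figure D1:**
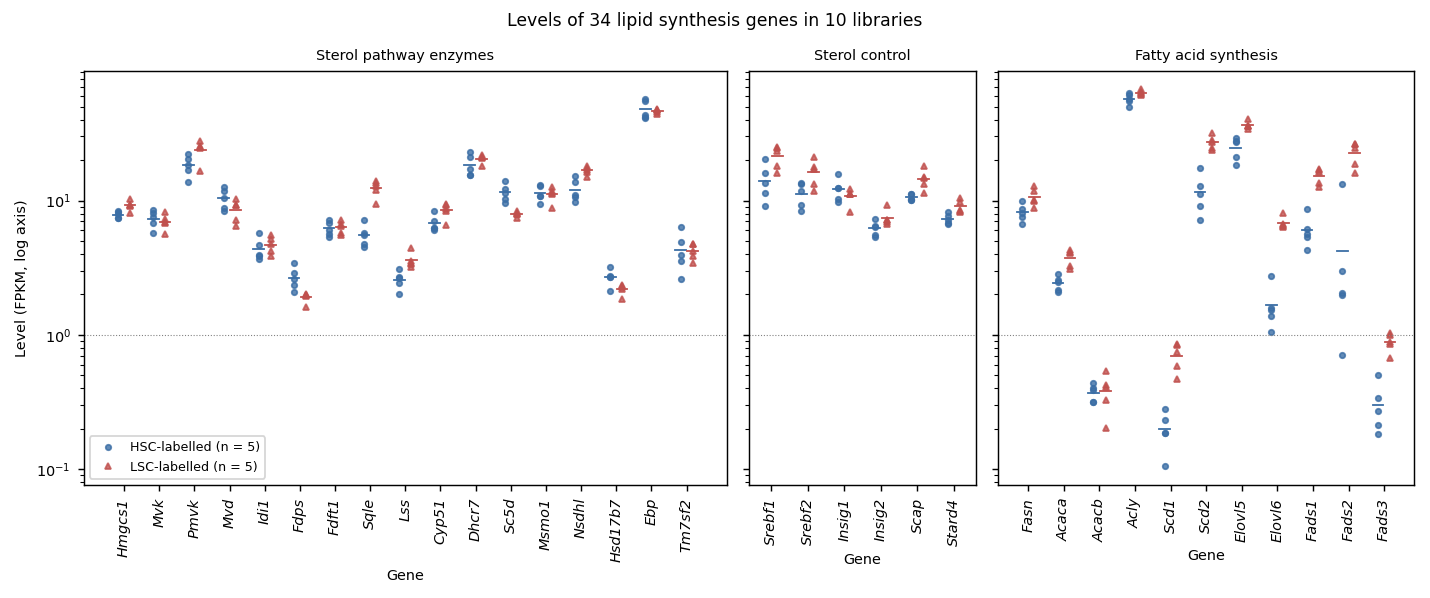
Level in FPKM (log axis) of each of the 34 genes in the 5 HSC-labelled (blue circles) and 5 LSC-labelled libraries (red triangles), with short lines at the group means and a dotted line at 1 FPKM. Acly and Ebp are the most abundant members, and the groups separate for Fads2, Elovl6, Fads1, Scd2 and Sqle but overlap for most sterol enzymes.

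**Figure D2:**
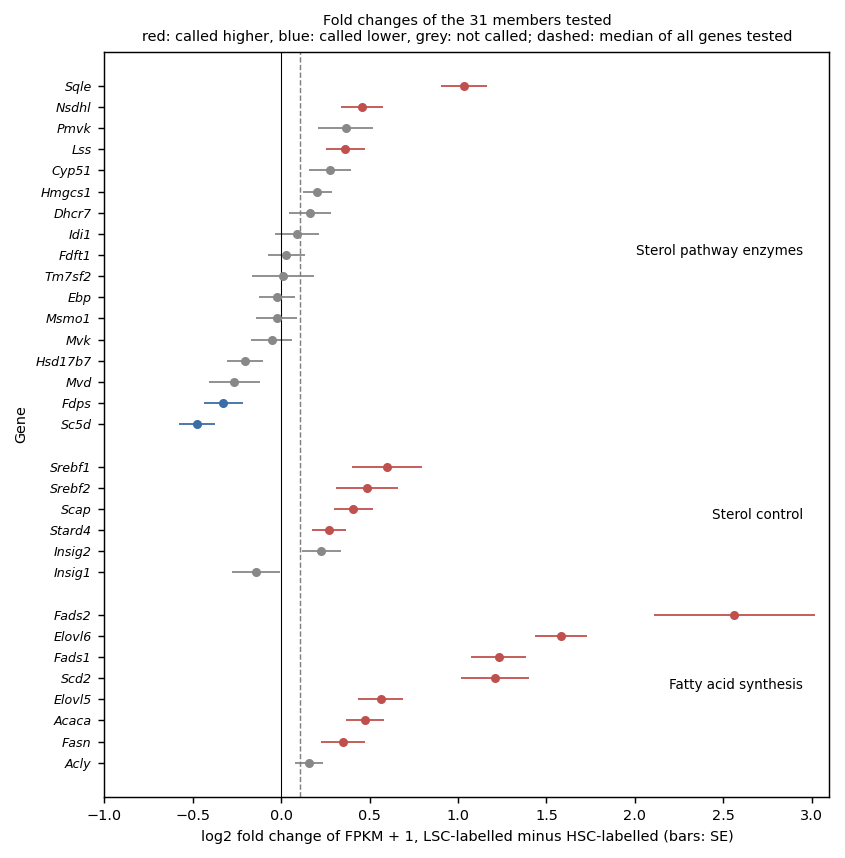
Log2 fold change of FPKM + 1 (LSC-labelled minus HSC-labelled) with its standard error for the 31 members tested, ordered within the 3 groups of genes; red marks called higher, blue called lower and grey not called, and the dashed line is the median of all genes tested (0.11). Fads2 lies farthest to the right at 2.56, and Sc5d farthest to the left at -0.48.

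The member desaturases (Fads1, Fads2, Fads3, Scd1, Scd2) and elongases (Elovl5, Elovl6) were each higher in every LSC-labelled library than in any HSC-labelled one. Among elongases outside the members, Elovl1 was called higher (83.2 and 103 FPKM, limma adjusted p = 0.00825). Elovl7 overlapped and was not called (1.35 and 2.22 FPKM, adjusted p = 0.0563), and Elovl3 and Elovl4 lay below the filter with overlapping groups and lower LSC-labelled means (0.1101 and 0.0635, 0.139 and 0.11 FPKM). Fads2, the delta-6 desaturase that opens the path from dietary linoleic and alpha-linolenic acid to longer polyunsaturated fatty acids, measured 2.98, 13.4, 0.706, 1.99 and 2.05 FPKM in HSC-labelled libraries 1 to 5 and 18.7, 24.8, 26.2, 15.9 and 26.4 in LSC-labelled libraries 1 to 5. All 5 LSC-labelled values lay above the HSC-labelled ones, among which library 2 was far above the other 4. The means were 4.22 ± 5.18 and 22.4 ± 4.79 FPKM (SD, n = 5 each), a log2 fold change of 2.56 on the log2(FPKM + 1) scale (limma adjusted p = 0.00103, SE 0.454), and 3.03 without HSC-labelled library 2 (adjusted p = 4.2e-06).

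Fads1, the delta-5 desaturase of the same path, measured 6.12, 8.68, 4.2998, 5.64 and 5.39 FPKM in the HSC-labelled and 12.5, 16.2, 16.9, 13.5 and 17.2 FPKM in the LSC-labelled libraries. The groups did not overlap, and library 2 was again the highest of the HSC-labelled ones. The log2 fold change was 1.23 (limma adjusted p = 0.000108, SE 0.154). Fads3, a related desaturase that acts on sphingoid bases, stayed under the filter with means of 0.301 ± 0.125 and 0.888 ± 0.143 FPKM and no overlap. Without the filter its log2 fold change was 0.54 (limma adjusted p = 0.00446). The 3 genes are neighbours on mouse chromosome 19 (GRCm38/mm10, GENCODE M21), with Fads3 at 10041569 to 10060110 on the plus strand, Fads2 at 10062765 to 10101746 on the minus strand and Fads1 at 10182888 to 10196877 on the plus strand.

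Elovl6 encodes the elongase that lengthens palmitate and palmitoleate to chains of stearate length. Its levels were 1.54, 2.75, 1.06, 1.38 and 1.59 FPKM in HSC-labelled libraries 1 to 5 and 6.44, 6.54, 6.398, 8.08 and 6.71 in LSC-labelled libraries 1 to 5. All LSC-labelled values lay above the HSC-labelled ones, with library 4 the highest, and HSC-labelled library 2 was the highest of its group. The LSC-labelled mean was 4.11 times the HSC-labelled one, with a log2 fold change of 1.58 (limma adjusted p = 1.47e-05, SE 0.148). Elovl5, which lengthens the polyunsaturated products of Fads2, had means of 24.7 ± 4.85 and 36.4 ± 2.21 FPKM, also with no overlap (log2 fold change 0.56, limma adjusted p = 0.00461).

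Scd2 and Scd1 encode stearoyl-CoA desaturases, which make oleate and palmitoleate. Scd2 measured 12.8, 17.6, 7.17, 11.1 and 9.11 FPKM in the HSC-labelled and 23.7, 28.04, 27.1, 24.7 and 31.8 FPKM in the LSC-labelled libraries. The groups did not overlap, and HSC-labelled library 2 came nearest to the LSC-labelled ones. The log2 fold change was 1.21 (limma adjusted p = 0.000493, SE 0.191). Scd1, the main isoform of mouse liver, was much less abundant, at 0.231, 0.187, 0.187, 0.105 and 0.283 FPKM in the HSC-labelled and 0.746, 0.847, 0.469, 0.585 and 0.854 FPKM in the LSC-labelled libraries. Its groups did not overlap either, with every value below 1 FPKM, and without the filter the log2 fold change was 0.50 (limma adjusted p = 0.00621). At such levels the log2(FPKM + 1) scale understates the change, since the ratio of means was 3.53. Both paralogs are on chromosome 19, Scd2 from base 44293674 to 44306864 (plus strand) and Scd1 from 44394455 to 44407879 (minus strand), and the sources used here do not say how reads common to both were counted.

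On the log2(FPKM + 1) scale, the earlier steps of fatty acid synthesis had smaller fold changes. By ratio of means, Acaca (1.555) was above Elovl5 (1.474), since that scale understates changes at low levels. Acaca, acetyl-CoA carboxylase 1, which makes the malonyl-CoA that commits carbon to fatty acids, measured 2.48, 2.84, 2.15, 2.07 and 2.54 FPKM in the HSC-labelled and 4.29, 3.27, 3.08, 4.06 and 4.11 FPKM in the LSC-labelled libraries. The groups did not overlap, with a log2 fold change of 0.47 (limma adjusted p = 0.0048). Fasn, the synthase that builds palmitate, measured 6.67, 7.54, 9.92, 8.02 and 8.71 FPKM in the HSC-labelled and 12.8, 8.81, 10.1, 9.94 and 11.7 FPKM in the LSC-labelled libraries. Here the groups overlapped, with the highest HSC-labelled value, of library 3, above the lowest LSC-labelled one, of library 2. Its call (log2 fold change 0.35, limma adjusted p = 0.0394) was made in 9 of the 20 fits, with an adjusted p of up to 0.226, and was lost without any 1 of HSC-labelled libraries 1, 2 and 4 or LSC-labelled libraries 1, 3, 4 and 5. Acly, ATP-citrate lyase, which makes cytosolic acetyl-CoA for both branches and was the most abundant member, measured 60.6, 56.8, 49.8, 54.7 and 63.3 FPKM in the HSC-labelled and 61.2, 62.8, 64.03, 62.5 and 67.03 FPKM in the LSC-labelled libraries, overlapping and not called (log2 fold change 0.16, limma adjusted p = 0.138). Acacb, the mitochondrial acetyl-CoA carboxylase, stood below the filter at 0.372 ± 0.0539 and 0.382 ± 0.126 FPKM.

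The rises of Fads2, Fads1, Elovl6 and Scd2 stood in libraries that also held more RNA of erythroid and megakaryocyte markers. The 11 erythroid markers had HSC-labelled sums of 63.45 to 337 FPKM and LSC-labelled sums of 360 to 620, and limma called 8 of 11 higher. Beside this and the marker counts below, 27.2% of all genes tested were called higher. Among HSC-labelled libraries, library 2 had the highest value for 7 of 11 fatty acid genes and for 9 of 11 erythroid markers. It was also highest for 9 of 10 megakaryocyte and platelet markers and 9 of 10 neutrophil markers, beside 31.4% of all genes tested. Klf1, an erythroid factor, measured 2.798, 54.3, 1.498, 2.2999 and 2.302 FPKM in the HSC-labelled libraries. Library 2 held the highest Klf1 and the highest Fads2 of its group. Library 3 held the next highest erythroid sum (306 FPKM, mostly the globin genes Hba-a1 and Hbb-bs) but the lowest Fads2. The 10 megakaryocyte and platelet markers summed to 21.5 to 272 FPKM and 795 to 1288 (9 of 9 tested higher), and the 9 of mast cells, basophils and eosinophils to 98.2 to 344 and 1172 to 2531 (8 of 9 higher). Neutrophil markers summed to 596 to 3353 and 1726 to 20110 FPKM (9 of 10 higher), and those of osteoblasts and stroma to at most 8.38 and at most 1004 with no overlap (7 of 7 tested higher). Those of T and NK cells summed to 69.1 to 494 and 586 to 899 (4 of 4 tested higher), mostly Nkg7 (means of 212 and 720). Cd3e, Cd3g, Cd3d and Klrb1c lay below the filter, and of these all but Cd3d overlapped between groups. B lymphoid markers summed to 32.1 to 52.3 and 38.6 to 67.4 FPKM (4 of 5 tested higher), and endothelial ones to 18.4 to 50.05 and 29.9 to 39.7 (3 of 4 tested higher). Adipocyte markers, of lipid-storing cells, summed to 2.11 to 6.39 and 10.05 to 26.3 FPKM (1 of 2 tested higher), mainly Adipoq (means of 0.191 and 8.07) and Fabp4, while Plin1, Cidec and Lep stayed below 1 FPKM in every library. Their part in the lipid gene results was not tested, and in bulk samples fewer cells of a type and less RNA per cell cannot be told apart. Without HSC-labelled library 2, 6 of 8 fatty acid genes were called higher and the median log2 fold change was 0.99.

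**Figure D3:**
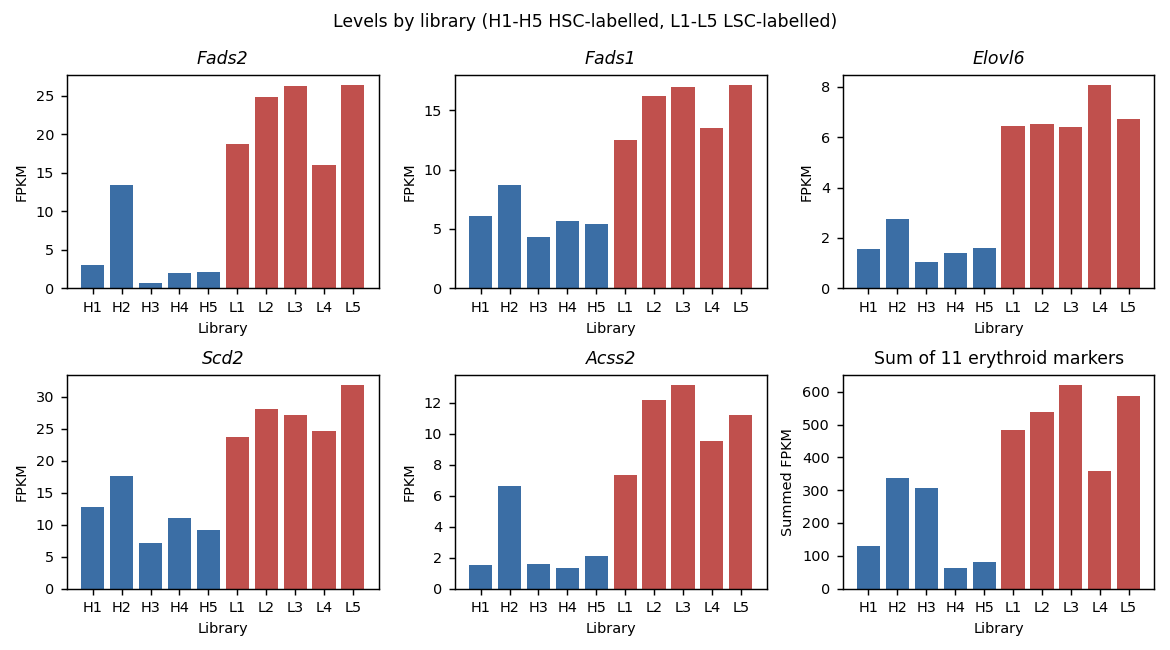
Levels in FPKM of Fads2, Fads1, Elovl6, Scd2 and Acss2, and the summed FPKM of 11 erythroid markers, in HSC-labelled libraries H1 to H5 (blue) and LSC-labelled libraries L1 to L5 (red). Library H2 is the highest of its group in all 6 plots, with Fads2 at 13.4 FPKM against 0.706 to 2.98 in the other 4.

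Sterol enzymes went both ways, and 12 of 17 were not called. Hmgcs1, the synthase that makes HMG-CoA and a textbook SREBP target, measured 8.295, 7.47, 8.198, 7.36 and 7.91 FPKM in the HSC-labelled and 9.14, 9.29, 8.01, 10.3 and 9.32 FPKM in the LSC-labelled libraries. The groups overlapped at LSC-labelled library 3, and the difference missed the threshold (log2 fold change 0.20, limma adjusted p = 0.0708), though it passed without that library (0.25, adjusted p = 0.0425). The other enzymes of the mevalonate path, Mvk, Pmvk, Mvd and Idi1, had means of 7.29 and 6.97, 18.2 and 23.8, 10.4 and 8.5, and 4.37 and 4.697 FPKM and were not called. Pmvk passed without LSC-labelled library 4 (log2 fold change 0.49, adjusted p = 0.014), and Mvd was called lower with either scaling (-0.39 in both). Fdps, which makes farnesyl diphosphate at the branch to isoprenoids, was lower, at 2.67 ± 0.519 and 1.91 ± 0.161 FPKM (log2 fold change -0.33, limma adjusted p = 0.0341). That call was lost without HSC-labelled library 1 or 4 or LSC-labelled library 2, 3, 4 or 5 (adjusted p of 0.0562 to 0.0821) and without the filter, and was kept with both scalings. Fdft1, squalene synthase, measured 6.19 and 6.33 FPKM on average and was not called.

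Sqle stood out among the sterol enzymes. It encodes squalene epoxidase, which carries out the first oxygenation and a rate-limiting step of the pathway, and measured 5.56, 7.15, 5.68, 4.48 and 4.78 FPKM in the HSC-labelled and 9.48, 13.9, 12.8, 11.9 and 13.6 FPKM in the LSC-labelled libraries. Every LSC-labelled value exceeded every HSC-labelled one, at a ratio of means of 2.23 (log2 fold change 1.03, limma adjusted p = 0.000121, SE 0.132). Sqle occupies bases 59315077 to 59331192 of chromosome 15 (GRCm38/mm10), plus strand. Lss, which closes the squalene epoxide to lanosterol, measured 2.67, 3.097, 2.43, 1.998 and 2.64 FPKM in the HSC-labelled and 3.36, 3.405, 3.53, 3.21 and 4.41 FPKM in the LSC-labelled libraries, with no overlap (log2 fold change 0.36, limma adjusted p = 0.0205). That call was lost without LSC-labelled library 5 (0.30, adjusted p = 0.0575), with quantile normalization and without the filter.

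Past lanosterol, Nsdhl rose and Sc5d fell. Nsdhl, a dehydrogenase that helps remove the methyl groups at carbon 4, measured 13.6, 11.004, 10.6, 9.82 and 15.2 FPKM in the HSC-labelled and 16.8, 18.1, 16.4, 14.98 and 17.6 FPKM in the LSC-labelled libraries, a call of higher (limma adjusted p = 0.00917, log2 fold change 0.46). The groups overlapped only in that HSC-labelled library 5 lay above LSC-labelled library 4, and the call was lost without HSC-labelled libraries 2 and 3 together (adjusted p = 0.0511). Sc5d, the desaturase that makes 7-dehydrocholesterol, measured 14.01, 12.3, 9.59, 10.2 and 11.4 FPKM in the HSC-labelled and 7.43, 8.29, 7.91, 8.04 and 7.998 FPKM in the LSC-labelled libraries. All LSC-labelled values lay below the HSC-labelled ones, and the LSC-labelled values were close together (log2 fold change -0.48, limma adjusted p = 0.00319, SE 0.101). Dhcr7, which turns the product of Sc5d into cholesterol, had means of 18.4 and 20.5 FPKM, and Ebp, the sterol isomerase before Sc5d and the most abundant enzyme of the 17, 47.7 and 46.5. Neither was called, nor were Cyp51, the demethylase of lanosterol (6.81 and 8.46), Msmo1, the oxidase at carbon 4 (11.4 and 11.1), Hsd17b7, its partner reductase (2.69 and 2.198), and Tm7sf2, a sterol reductase (4.29 and 4.19). Cyp51 passed without HSC-labelled library 1 or LSC-labelled library 1 (log2 fold changes of 0.34 and 0.36, adjusted p of 0.0334 and 0.0227), and Hsd17b7 was called lower with both scalings (-0.30 and -0.33).

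Among the 6 genes of sterol control, 4 were called higher, but these calls depended on the scaling. Srebf1 measured 15.9, 20.3, 9.04, 11.3 and 13.6 FPKM in the HSC-labelled and 23.3, 18.04, 24.6, 16.01 and 24.8 FPKM in the LSC-labelled libraries, and Srebf2 13.4, 13.5, 8.35, 9.28 and 11.7 and 21.1, 13.2, 17.7, 11.8 and 17.3. Both ranges overlapped, with HSC-labelled libraries 3 and 4 lowest and LSC-labelled libraries 2 and 4 the low ones of their group in both genes. The log2 fold changes were 0.60 (limma adjusted p = 0.0314) and 0.49 (adjusted p = 0.0437), called in 12 and 10 of the 20 fits. Either call was lost without HSC-labelled library 3, 4 or 5 or LSC-labelled library 1, 3 or 5, with log2 fold changes between 0.39 and 0.60 in those fits, and with median-of-ratios scaling (0.47 and 0.36, adjusted p = 0.0507 and 0.0824). Quantile normalization ended the call of Srebf2 (adjusted p = 0.07003).

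Scap, the escort of SREBP, measured 11.1, 10.2, 10.2, 10.1 and 11.3 FPKM in the HSC-labelled and 18.002, 11.4, 14.8, 13.2 and 14.98 FPKM in the LSC-labelled libraries. Its groups did not overlap (log2 fold change 0.41, limma adjusted p = 0.0118), and its call was lost in 1 of the 20 fits, with median-of-ratios scaling (0.28, adjusted p = 0.0541). Stard4, a carrier of cholesterol between membranes, measured 8.27, 7.697, 7.11, 6.75 and 6.74 FPKM in the HSC-labelled and 8.25, 9.77, 8.33, 8.46 and 10.4 FPKM in the LSC-labelled libraries. Its groups overlapped narrowly (log2 fold change 0.27, limma adjusted p = 0.039), and the call was made in 9 of the 20 fits, being lost without HSC-labelled library 3, 4 or 5 or LSC-labelled library 2, 4 or 5 (log2 fold changes of 0.22 to 0.29, adjusted p of 0.0523 to 0.1075). Insig1, a target of SREBP that also restrains it, measured 15.6, 12.4, 10.3, 9.74 and 12.4 FPKM in the HSC-labelled and 11.1, 11.2, 11.1, 8.28 and 12.3 FPKM in the LSC-labelled libraries. The groups overlapped and Insig1 was not called (log2 fold change -0.14, limma adjusted p = 0.433). Insig2, which restrains SREBP in the same way, had means of 6.21 ± 0.784 and 7.45 ± 1.04 FPKM and was not called. Of the 6 genes, limma called 0 with median-of-ratios scaling, where 4 had an unadjusted p under 0.05. The count was 2 with quantile normalization, 1 without HSC-labelled library 3, 4 or 5 or LSC-labelled library 5, and 2 without LSC-labelled library 1 or 3.

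Ratios of paired genes within a library do not change when the library is scaled by a single factor, as in median-of-ratios scaling. Quantile normalization can change them, and the shares were not computed with it. The 5 such pairs were compared with an exact two-sided permutation test over all assignments of the libraries, whose smallest p is 0.00794. Elovl6 gained on Elovl5. The Elovl5 share of their summed FPKM was 94.6%, 91.45%, 94.5%, 93.8% and 94.6% in HSC-labelled libraries 1 to 5 and 86.2%, 83.9%, 84.8%, 81.7% and 84.3% in LSC-labelled libraries 1 to 5. The groups were far apart, at 93.8% ± 1.35 and 84.2% ± 1.64 (SD, n = 5; exact permutation p = 0.00794, adjusted over the 5 pairs 0.0265). The Insig1 share of Insig1 and Insig2 was 65.8% ± 3.20 and 59.1% ± 4.55 (exact p = 0.0159, adjusted 0.0265, n = 5), with the highest LSC-labelled library above the lowest HSC-labelled one. Acaca took 86.6% ± 2.09 and 90.9% ± 2.14 of Acaca and Acacb (exact p = 0.0159, adjusted 0.0265, n = 5), again with overlap. Acacb lay below the filter, at means of 0.372 and 0.382 FPKM, so this share rests on few Acacb fragments and adds little to the Acaca values above. The last 2 calls were each lost when single libraries were left out, Insig1 without HSC-labelled library 1, 2, 3 or 4 or LSC-labelled library 1 (differences of -7.24 to -5.41 percentage points), and Acaca without HSC-labelled library 1, 3, 4 or 5 or LSC-labelled library 1, 2 or 5 (3.54 to 4.38). The Srebf1 share of both Srebf genes (55.0% ± 3.05 and 57.0% ± 2.55, exact adjusted p = 0.270, n = 5) and the Scd1 share of both Scd genes (1.86% ± 0.910 and 2.52% ± 0.540, exact adjusted p = 0.258, n = 5) did not pass, although the levels of both Scd genes rose.

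**Figure D4:**
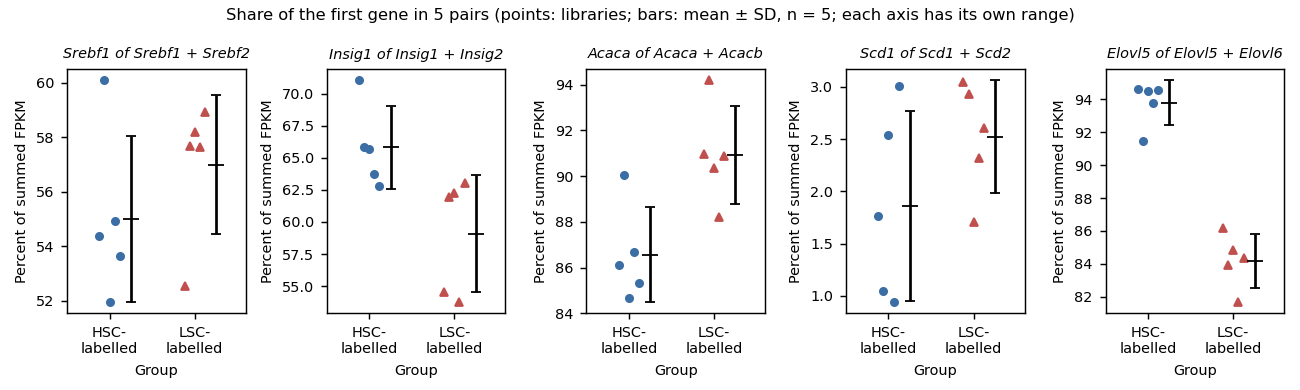
Share of the first gene in the summed FPKM of each of 5 pairs, in percent, by library (points), with mean and SD (n = 5 per group); each axis has its own range and does not start at 0. The Elovl5 share separates the groups at 93.8% and 84.2%, and the other 4 pairs overlap.

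Promoter sequence was compared between the sterol and fatty acid genes. RefSeq windows (GRCm38.p6) from 250 bases before to 50 after a start were at hand for 27 of the 34 members, all but Fdps, Fdft1, Sqle, Stard4, Scd1, Scd2 and Fads1; the motif counts do not cover these. On both strands, 4 motifs were searched, none of which contains another. The core of the sterol regulatory element, TCACNCCAC, was in the window of 1 member, Hmgcs1, and in 1.44% of all 27025 genes with a window. The CCAAT box was in 23 of 27 members against 41.1% of genes, among them 14 of 14 sterol enzymes, 4 of 5 genes of sterol control and 5 of 8 fatty acid genes. The GC box GGGCGG was in 21 of 27 against 38.2%, and the E-box CACGTG in 6 of 27 against 8.09%. No test was run on these counts, and a match is not evidence of binding. A missing match to these letters is not evidence that a gene lacks such an element. Shown 5′ to 3′ are the bases just before the RefSeq start of Hmgcs1, the member with a match to the sterol element core, and of 3 elongation and desaturation genes that rose. Matches to any of the 4 motifs are in capitals. The stretch of Hmgcs1 is 157 bases long and the others are 120 bases each.
Hmgcs1 (chr13:119690194-119690350, plus strand): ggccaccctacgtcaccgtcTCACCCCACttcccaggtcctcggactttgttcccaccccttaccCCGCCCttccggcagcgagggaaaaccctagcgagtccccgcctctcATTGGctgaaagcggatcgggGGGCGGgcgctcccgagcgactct
Fads2 (chr19:10101504-10101623, minus strand): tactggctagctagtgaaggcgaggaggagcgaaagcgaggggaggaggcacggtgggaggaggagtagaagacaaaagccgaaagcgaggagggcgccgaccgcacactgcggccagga
Elovl6 (chr3:129532266-129532385, plus strand): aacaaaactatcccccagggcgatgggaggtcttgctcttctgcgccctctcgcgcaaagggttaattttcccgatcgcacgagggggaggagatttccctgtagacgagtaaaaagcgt
Elovl5 (chr9:77917245-77917364, plus strand): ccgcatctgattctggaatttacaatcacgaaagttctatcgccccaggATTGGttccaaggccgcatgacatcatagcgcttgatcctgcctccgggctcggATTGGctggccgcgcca
In Hmgcs1 the sterol element begins 137 bases before the start and is followed by a GC box, a CCAAT box on the reverse strand and a second GC box. The stretches of Fads2 and Elovl6 hold none of the 4 motifs, but they are too short to reach the position of the Hmgcs1 sterol element. A GC box of Fads2 lies farther out, 186 bases before the start. The Elovl5 stretch holds a pair of CCAAT boxes on the reverse strand, beginning 71 and 17 bases before the start. An E-box of Elovl5 lies farther out, 161 bases before the start. These starts are those of RefSeq. By the GENCODE M21 bounds the Fads2 stretch lies inside the gene, which begins at 10101746 on the minus strand. The Elovl6 stretch runs past the GENCODE start at 129532355.

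Over 5 lists of related lipid genes, 21 of 65 tested were higher and 9 lower, close to the 27.2% and 13.8% of all genes. Median-of-ratios scaling gave 13 higher and 16 lower of the 65, beside 2777 and 2690 of all 13431 genes. For the single lists below, counts with that scaling stand beside the same share of all genes. The genes below are given for their own values. Of 13 genes tested that supply or lengthen fatty acids, 6 were called higher and 1 lower. Acss2, which makes acetyl-CoA from acetate, rose most. It measured 1.498, 6.62, 1.57, 1.31 and 2.09 FPKM in the HSC-labelled and 7.33, 12.2, 13.2, 9.54 and 11.2 FPKM in the LSC-labelled libraries. The groups did not overlap, and HSC-labelled library 2 was far above the other 4, as for Fads2 (log2 fold change 1.83, limma adjusted p = 0.000628). Hacd3, a dehydratase of the elongation cycle, rose from 21.3 ± 3.64 to 39.2 ± 4.57 FPKM, while its relative Hacd4 fell from 7.21 ± 1.101 to 4.24 ± 1.15. Of the 13, median-of-ratios scaling called 2 higher and 2 lower, with a median log2 fold change of 0.09 in place of 0.23.

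The isoprenoid branches that leave the sterol pathway had 7 of 12 genes higher and 0 lower, beside 27.2% and 13.8% of all genes, with a median log2 fold change of 0.31. Median-of-ratios scaling gave 5 higher, 1 lower and a median of 0.19. Fntb, a subunit of protein farnesyltransferase, rose from 9.33 ± 1.12 to 16.9 ± 1.21 FPKM (log2 fold change 0.79, limma adjusted p = 7.45e-05), Coq2, of ubiquinone synthesis, from 19.1 ± 6.06 to 29.5 ± 3.96, and Rabggtb, of Rab prenylation, from 24.7 ± 3.51 to 38.3 ± 4.09.

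Of 17 genes tested for sterol sensing and transport, which handle cholesterol after its synthesis or uptake, 2 were higher and 6 lower, beside 27.2% and 13.8% of all genes. Their median log2 fold change was -0.08, and median-of-ratios scaling gave 1 higher, 7 lower and a median of -0.22. Soat1, which esterifies cholesterol for storage, fell from 23.5 ± 3.12 to 11.2 ± 1.35 FPKM (limma adjusted p = 4.42e-05, a ratio of means of 0.478). Lipa, the lysosomal lipase that frees cholesterol from lipoproteins, fell from 47.9 ± 3.46 to 28.4 ± 2.303 FPKM, and Erlin1, a protein of the endoplasmic reticulum that binds cholesterol, from 37.9 ± 7.29 to 24.6 ± 2.27. Among genes of LXR and cholesterol efflux, 1 of 7 was higher and 1 lower, and 4 were lower with median-of-ratios scaling. Cyp27a1, which makes 27-hydroxycholesterol, fell from 17.7 ± 5.77 to 8.24 ± 0.747 FPKM, and Lpcat3, an LXR target that puts polyunsaturated chains into phospholipids, rose from 33.1 ± 3.23 to 47.2 ± 3.84. Of 10 monocyte and macrophage markers, 5 were lower and 0 higher in the same libraries, with sums of 979 to 1994 and 869 to 1332 FPKM, and their part in these falls was not tested.

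Fatty acid oxidation, which breaks down what synthesis makes, had 5 of 16 genes higher and 1 lower, a share near the 27.2% of all genes called higher. The median log2 fold change of 0.20 became 0.07 with median-of-ratios scaling, with 4 higher and 2 lower. Acadl, the long-chain acyl-CoA dehydrogenase, rose from 49.6 ± 9.12 to 85.9 ± 6.75 FPKM (log2 fold change 0.80, limma adjusted p = 0.00048), Decr1, which handles unsaturated chains, from 11.2 ± 0.993 to 16.9 ± 1.71, and Eci1, an enoyl-CoA isomerase, from 46.7 ± 11.4 to 66.4 ± 4.65 (called in 19 of the 20 fits).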

How the data were processed

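Per the labels' protocols, RNA of sorted cells was amplified by Geo-seq before library construction with a TruePrep kit. The submitters' processing notes list mm10 and the tools Bowtie 0.12.9, Cufflinks 2.1.1, HTSeq and DESeq2, without saying what each did. Strandedness and annotation are not stated there, so reads of paralogs or overlapping genes may be shared. The authors deposited FPKM values. Of 51456 IDs, 51187 took symbols from GENCODE M21.

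A gene was tested if 5 or more libraries reached 1 FPKM, using log2(FPKM + 1) and limma 3.58.1 in R 4.3.3 (group as the only term, mean trend, two-sided, Benjamini-Hochberg adjustment over all genes tested, threshold 0.05). Low values came out as whole fragments in 60.05% to 71.7% of cases, so no count test was run. The fit was tested on simulated data. Each fold change sets LSC-labelled over HSC-labelled libraries, each SD is over libraries, and the 20 fits are the one reported and its alternatives. Shares used exact permutation tests. Median-of-ratios factors came from tested genes above 0 in every library, a set chosen after seeing the data.

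The members and gene lists were chosen with earlier results of these data known. Values in every library are given for 10 members whatever their values (Srebf1, Srebf2, Insig1, Hmgcs1, Sqle, Acly, Acaca, Fasn, Scd1, Scd2) and for the 4 called members of largest change in each of the 3 lists. In each related list up to 3 called genes of largest change are named. The library values of Acss2, Klf1 and Gata1 and the other Elovl genes were picked after they were seen. Some genes of the pathway are not analysed here.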

Additional observations from a re-analysis of the deposited data

Results flagged for a closer look

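In 98 groups of 5 values (34 members, 10 marker sums and 5 shares in both groups of libraries), 12 held a library whose gap to the next exceeded 0.71 of the range, where chance gives about 1 in 20. Fads2 was highest in HSC-labelled library 2, at 13.4 FPKM with the next at 2.98. In the same library the Elovl5 share of Elovl5 and Elovl6 was the lowest, at 91.45% with the next at 93.8%, and the megakaryocyte and platelet markers summed highest, at 272 FPKM with the next at 84.96.

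Among the LSC-labelled libraries, library 1 held the highest Insig2 (9.27 FPKM, next 7.19), the highest sum of osteoblast and stroma markers (1004 FPKM, next 437) and the lowest Srebf1 share of both Srebf genes (52.5%, next 57.6%). Library 4 held the lowest Pmvk (16.4 FPKM, next 24.55), the lowest Dhcr7 (17.96, next 20.7) and the highest Elovl6 (8.08, next 6.715). Library 3 had the lowest Fdps (1.62 FPKM, next 1.96) and library 5 the highest Lss (4.41 FPKM, next 3.53). Mast cell, basophil and eosinophil markers summed highest in HSC-labelled library 5, at 344 FPKM with the next at 140.5.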

How the results depend on the processing

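The alternatives were pseudocounts of 0.1 and 0.01, no filter or a mean of at least 1 FPKM, 2 scalings, a replicate block, no mean trend, each library left out and, added after seeing the data, HSC-labelled libraries 2 and 3 left out together. Under all 19, Sqle, Acaca, Scd2, Elovl5, Elovl6, Fads1 and Fads2 were called higher and Sc5d lower. The other 8 called members lost their call in at least 1, and no member's call changed sign. The cause of these changes was not tested. With median-of-ratios scaling the members called were 9 higher and 4 lower, the sterol enzymes lower 4, the control genes higher 0 (limma with quantile normalization called 2) and the related genes 13 higher and 16 lower. Over all 13431 genes tested that scaling called 2777 higher and 2690 lower. Quantile normalization gave 4 members lower, 4 sterol enzymes lower, 16 related genes lower and 2833 of all genes lower in place of 1859, and the share of higher calls over all genes went from 66.3% to 50.8% and 49.6% with these scalings. Without the filter 1 member and 1 sterol enzyme were lower and 1 control gene higher. Without HSC-labelled libraries 2 and 3 the control genes higher were 2.

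Leaving out each library gave 3097 to 3944 genes higher and 1558 to 1928 lower, 9 to 14 members higher and 1 to 2 lower, 2 to 4 sterol enzymes higher and 1 to 2 lower, 1 to 4 control genes higher, 6 to 7 fatty acid genes higher, and 16 to 24 related genes higher and 8 to 11 lower. Differences in share ran from -7.70 to -5.37 percentage points for Insig1, 3.54 to 5.22 for Acaca and -10.2 to -8.99 for Elovl5.

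Both groups number their libraries 1 to 5, and the sample titles do not say whether same-numbered libraries have more in common. Their deviations correlated at 0.107, 0.1203, -0.290, 0.225 and 0.0519, which cannot show whether they shared a batch. With the replicate block Stard4 and Fasn were no longer called (adjusted p = 0.0828 and 0.0716), while Pmvk (0.0263) and Mvd (0.042) were. An exact sign-flip permutation test over same-numbered libraries, the replicate block for the shares, cannot go below p = 0.0625 and called none (-6.71 for Insig1, adjusted p = 0.208; 4.35 for Acaca and -9.62 for Elovl5, 0.156 each). Depth limits Scd1, Fads3 and Acacb most, whose low levels rest on few fragments.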
